A study of Mus musculus with 6 samples.

Results

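Tight junctions are the uppermost cell-cell contacts of epithelia. Claudins form the paracellular barrier and its pores, occludin and tricellulin are further four-pass membrane proteins of the strands, junctional adhesion molecules are immunoglobulin-type membrane proteins beside them, and scaffold proteins such as ZO-1 and cingulin tie these membrane proteins to actin. Loss of junction proteins is a familiar feature of carcinoma cells that leave the epithelial state, and the transcription factors of that transition bind E-box motifs in the promoters of many epithelial genes. The account below covers 9 tight junction genes of mouse, chosen by name: the claudins Cldn1, Cldn3, Cldn4 and Cldn7, Ocln (occludin), Marveld2 (tricellulin), F11r (junctional adhesion molecule A), Tjp1 (ZO-1) and Cgn (cingulin). They were 9 of 36163 gene names on the array and were read by 11 probes, 1 each except for Cldn4 and Ocln, which had 2.

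N18-CFMS cells, also written N18-Fms, are a luciferase-expressing subclone of the murine C2H line, a prostate tumor cell line from the TRAMP model (in which the SV40 T antigen is driven in prostate epithelium). They were transduced with a retrovirus carrying c-fms, the gene of the CSF-1 receptor, and sorted for the receptor. All 3 groups were these cells, kept in medium with 10% serum and dihydrotestosterone. The Control group was described as untreated in 1 label and as given a vehicle in another. The 24H CSF1 and 48H CSF1 groups received recombinant mouse CSF-1 at 100 ng/mL for 24 h or 48 h, and each group had 2 one-colour Agilent arrays, from 2 independent experiments. All cells were 1 subclone and the controls carried the receptor as well, so the comparisons concern added CSF-1 and not the receptor. The paper found that the N18 subclone secretes CSF-1 and proposes that cells with the receptor respond to their own. Any such response in Control was not measured on these arrays. The methods text gives 12 h and 24 h in place of the labelled times, which are used here.

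A value below is the log2 signal of a probe less the 75th percentile of its array, so that 0 is a signal brighter than 75% of the spots of that array. The scanner software marks a spot as well above background or not, and a probe that was not has no usable level. Between 58.7% and 72.0% of the 59305 spots per array were well above background, and none was saturated. The first 24H CSF1 array was on another slide and scan than the other 5 arrays, and the correlation between the 2 arrays of a group was 0.993 to 0.994 over genes. Levels of different probes cannot be set against each other, and fewer cells with a transcript cannot be told apart from less of it per cell.

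The labelled cell type was checked against marker genes. Of 5 epithelial markers, Krt8 was well above background on all 6 arrays, Krt19 on 5, Krt18 on 3 and Epcam on 1. The adhesion gene Cdh1 (E-cadherin), a defining epithelial marker, was well above background on none. Krt8 was the only 1 of the 3 epithelial markers tested that passed the test, and it rose by 1.98 on the log2 scale at 48 h (adjusted p = 0.0106, limma). Csf1r, the transduced receptor, lay between 4.88 and 5.34 on all 6 arrays and passed the test at neither time. Of 8 myeloid markers 5 were well above background on all 6 arrays, among them Ptprc, which marks leukocytes and passed the test at neither time, and 1, Lyz2, on none. Fibroblast markers were above it on all arrays for 5 of 6, and endothelial markers for 2 of 6. By adjusted p in limma, 2 of 6 myeloid and 1 of 4 endothelial markers tested rose at each time, and of 5 fibroblast markers 2 rose and 3 fell at 24 h and 1 rose and 3 fell at 48 h. Over all genes 8.02% rose and 5.99% fell at 24 h, and 6.58% and 7.38% at 48 h. Mrc1, a macrophage receptor named here after its values were seen, rose 19.4-fold at 24 h and 11.8-fold at 48 h (adjusted p = 0.000845 and 0.000927, limma). Cdh5, an endothelial cadherin named in the same way, rose by 3.87 and 3.97 on the log2 scale (adjusted p = 0.00308 and 0.00234, limma). Only 1 of its 2 Control arrays was above background, so it entered the test only through the CSF1 groups, where it is high. The size of its rise rests in part on a Control value without a usable level. The summed linear level of the 6 fibroblast markers was 327 to 330 times the 75th-percentile signal in the Control arrays and 124 to 167 times in the CSF1 arrays. That of the 5 epithelial markers was 0.253 to 0.357 in Control, 0.434 to 0.497 at 24 h and 0.71 to 0.877 at 48 h, that of 8 myeloid markers was 40.0 to 44.6 in Control and 26.4 to 40.2 with CSF1, and that of 6 endothelial markers was 18.8 to 25.4 in Control and 18.7 to 24.0 with CSF1. A sum follows its brightest probes, Krt8, Col1a2, Itgam and Kdr in the epithelial, fibroblast, myeloid and endothelial lists, and does not show the rise of Mrc1 or Cdh5. The sums also include probes that were not well above background. The scanner signal of Krt8 alone was 66.8 and 118 in Control and 300 and 404 at 48 h, so the epithelial sum does not show a rise of the list. The part of these marker levels in the results below was not tested.

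N18-CFMS cells gave signal for only some of the 9 tight junction genes. F11r, Cldn7, Cldn4, Tjp1 and Cgn were well above background on all 6 arrays, so none of the 5 entered the test through 1 group alone. Cldn1, Cldn3 and Ocln were well above background on none. Marveld2 was above it on 1 array, the second of 24H CSF1. These 4 genes could not be compared between groups.

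**Figure D1:**
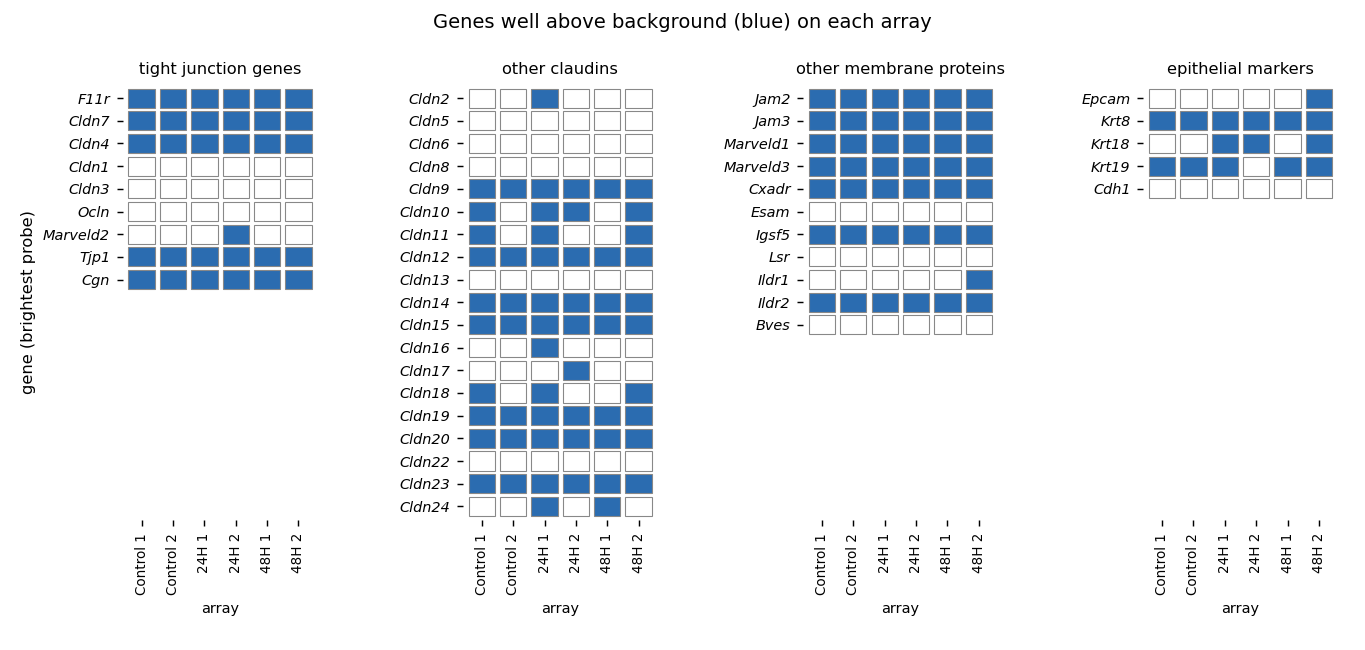
Each square is 1 gene (rows, by its brightest probe) on 1 of the 6 arrays (columns), blue where the spot was well above background and white where it was not. Among the 9 tight junction genes 5 rows are blue throughout, 3 are white throughout and Marveld2 has 1 blue square; Cdh1 in the right panel is white throughout.

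Claudin-4 is a barrier-forming claudin of many simple epithelia, and its 2 probes disagreed about whether there was a transcript. They read different stretches of the same accession, NM_009903, on the minus strand of chromosome 5 of mm9. Probe A_55_P2183453 lies at chr5:135422135-135422194 and starts at base 610 of the transcript. Probe A_51_P356467 lies nearer the 3′ end, at chr5:135421347-135421406, and starts at base 1398. Exon models of mm9 were not used here, and the positions are those printed by the array files. The first probe is shown whole because all Cldn4 results rest on it, with the opening 30 bases of the other for comparison, both in lower case.
Cldn4 A_55_P2183453: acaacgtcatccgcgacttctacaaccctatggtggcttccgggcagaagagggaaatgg
Cldn4 A_51_P356467: accctactaatgaatttctgtagagtggat
The first probe was well above background on 6 of 6 arrays with scanner signals of 58.2 to 82.8. The other was above it on 0 of 6 with signals of 5.04 to 22.1. A transcript that lacks the 3′ stretch and a weaker probe cannot be told apart with these data. Whether the first probe reads only Cldn4 was not tested, and the place of Cldn4 among the genes with signal rests on it.

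Occludin was also read by 2 probes, and these gave the same reading. They match NM_008756 on the minus strand of chromosome 13 of mm9, at chr13:101268529-101268588 and chr13:101267384-101267443, and the opening 30 bases of each are shown because a gene without signal rests on what was probed.
Ocln A_51_P486155: aaatggcttttgataattgactgggctgaa
Ocln A_55_P2055694: cccaatttggtctgttttagctgaaaatgt
Scanner signals of the first Ocln probe were 6.89 to 16.3 over the 6 arrays and those of the second 4.33 to 7.52. The lowest signal called well above background was 17.8 to 31.1, depending on the array, so both probes stayed under it.

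Cldn1 and Cldn3 encode barrier claudins. The signal of Cldn1 (NM_016674, probe at chr16:26357372-26357431 of mm9) was 5.26 to 7.92 on 5 arrays and 20.7 on the first 48H CSF1 array, where the lowest signal well above background was 28.8. Cldn3 (NM_009902, chr5:135463284-135463342) gave 4.25 and 4.85 in Control, 11.4 and 20.5 at 24 h, and 7.75 and 5.17 at 48 h. All of these signals lay below the lowest value called well above background on their own array, and their order cannot be read as one of transcript levels.

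Marveld2 encodes tricellulin, which sits where 3 cells meet. Its probe (NM_001038602, chr13:101366266-101366325 of mm9) gave signals of 17.8 and 6.11 in Control, 24.7 and 36.4 at 24 h, and 10.3 and 10.9 at 48 h. The 36.4 was above the lowest signal well above background on that array, 31.1, whereas the 24.7 of the other 24H CSF1 array was under its own limit of 25.7. One array of a pair gave signal, and no test was made.

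**Figure D2:**
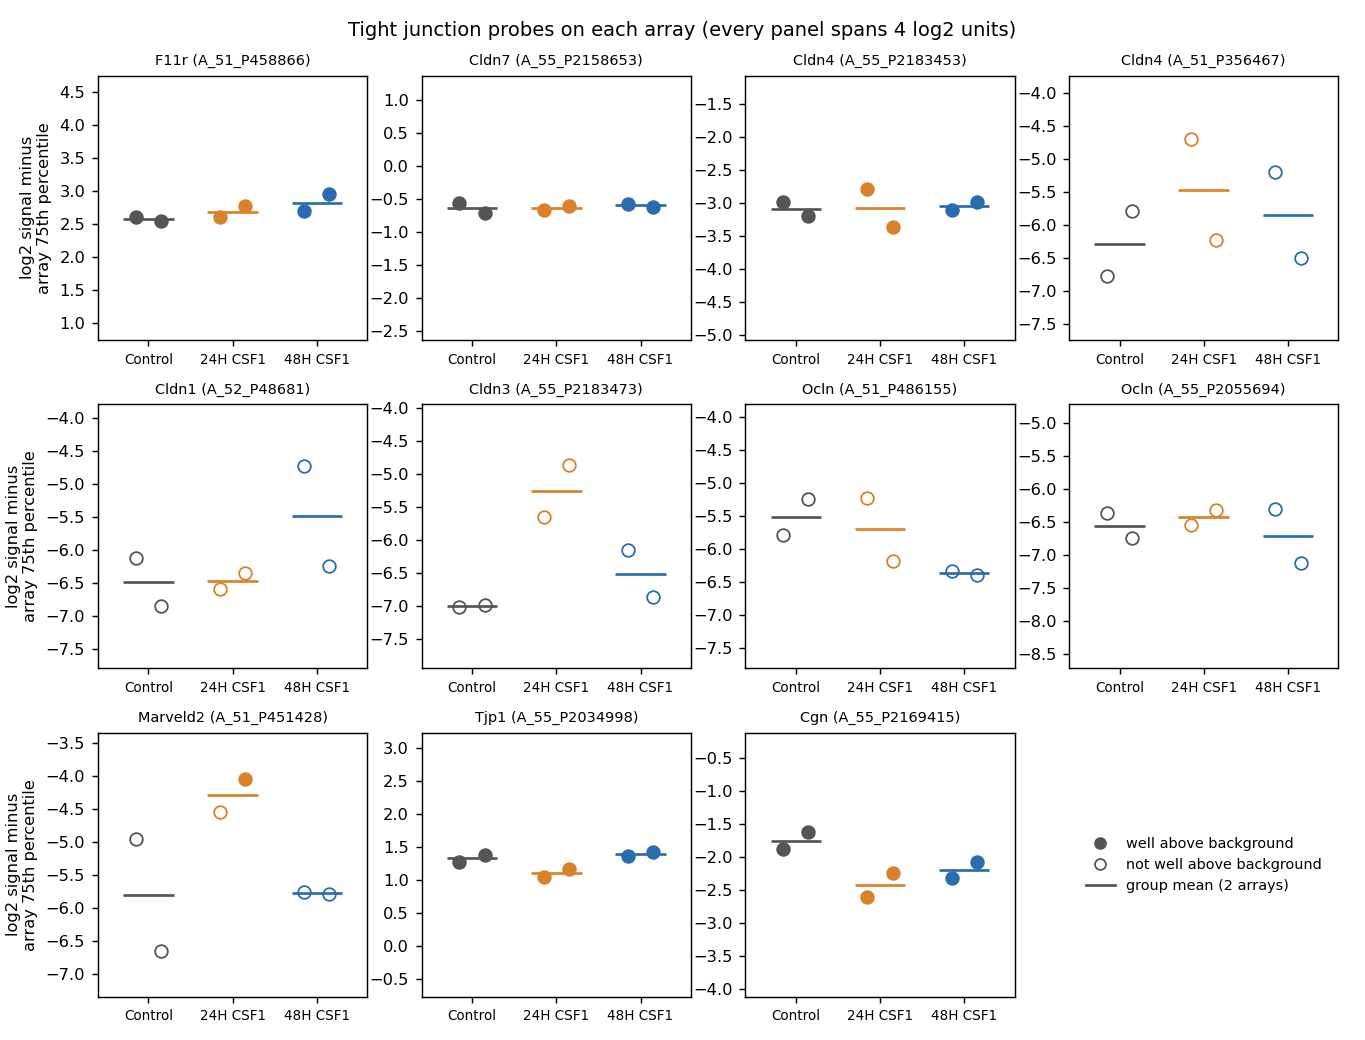
Each panel is 1 probe; the vertical axis is the log2 signal less the 75th percentile of the array and spans 4 log2 units in every panel, points are single arrays and lines are group means of 2 arrays. Filled points were well above background. Cgn is the 1 filled probe whose 4 CSF1 points all lie below both Control points.

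The comparisons ask whether CSF-1 altered the transcript levels of the tight junction genes that could be read. None of the 5 was called in any comparison. A gene was called at an adjusted p below 0.05 in limma (Benjamini-Hochberg over 24648 genes). By that rule 14.0% of all genes were called at 24 h and 14.0% at 48 h, and at such a rate fewer than 1 of 5 genes would be called, so 0 of 5 does not set these genes apart. At an unadjusted p below 0.05 the count was 1 of 5 at 24 h, Cgn, and 0 of 5 at 48 h, where 31.3% and 30.9% of all genes passed. No gene of the 5 passed the second rule, an unadjusted p below 0.05 with a change of at least 2-fold, which 7.68% of all genes passed at 24 h and 6.49% at 48 h. The methods name a t-test for the study in general and do not name the test used on the arrays. Without adjustment, that t-test passed 1352 of all genes at 24 h and 1161 at 48 h with a 2-fold change and 0 of the 5. With a Benjamini-Hochberg adjustment added here it called 0 of the 5 and 0 of all genes.

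The groups did not overlap for 3 of the 5 genes at 24 h and for 2 at 48 h, beside 59.0% and 58.8% of all genes. Their median log2 difference was 0.00 at 24 h and 0.05 at 48 h, beside 0.04 and -0.04 for all genes tested. All intervals below are 95% intervals of a log2 difference from limma, not adjusted for the number of genes, and rest on 2 arrays a group.

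F11r encodes junctional adhesion molecule A, which binds its like on the next cell and recruits polarity proteins. Its probe (NM_172647, chr1:173393848-173393907 of mm9, plus strand) read 2.61 and 2.55 in Control, 2.61 and 2.77 at 24 h, and 2.70 and 2.95 at 48 h. Both 48H CSF1 arrays were above both Control arrays, and at 24 h the lower array stood level with the higher Control array to 2 decimals. The difference from Control was 0.12 at 24 h (interval -0.23 to 0.46, adjusted p = 0.626, limma). At 48 h it was 0.25, 1.19-fold (interval -0.09 to 0.60, adjusted p = 0.278, limma).

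Cldn7 encodes a claudin that also lies along the lateral membrane. Its probe (NM_016887, chr11:69781255-69781314, plus strand) varied least among the 5. It read -0.56 and -0.71 in Control, -0.67 and -0.61 at 24 h, and -0.58 and -0.62 at 48 h. The groups overlapped in each comparison. The difference from Control was 0.00 at 24 h, with an interval of -0.29 to 0.28 and an adjusted p of 0.989 in limma. At 48 h it was 0.04 (interval -0.25 to 0.32, adjusted p = 0.867, limma).

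Cldn4, by the probe with signal, read -2.99 and -3.19 in Control, -2.79 and -3.36 at 24 h, and -3.10 and -2.98 at 48 h. The 24H CSF1 arrays lay on either side of the Control arrays. The difference was 0.02 at 24 h (interval -0.52 to 0.55, adjusted p = 0.967, limma) and 0.05 at 48 h (interval -0.49 to 0.58, adjusted p = 0.908, limma). Over the 21 alternatives it ran from -0.27 to 0.42 at 24 h and from -0.05 to 0.24 at 48 h, and was never called. The upper ends came with the mean of its probes, which includes the probe without signal.

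Tjp1 encodes ZO-1, the scaffold that clusters claudins. Its probe (NM_009386, chr7:72441126-72441185, minus strand) read 1.27 and 1.38 in Control, 1.04 and 1.17 at 24 h, and 1.36 and 1.42 at 48 h. The 24H CSF1 arrays were below the other 4, and the 48H CSF1 arrays overlapped Control. The difference from Control was -0.22 at 24 h (interval -0.51 to 0.06, adjusted p = 0.259, limma) and 0.06 at 48 h (interval -0.22 to 0.35, adjusted p = 0.764, limma). Between the times it was 0.29, higher at 48 h, with an interval of -0.0014 to 0.57, an unadjusted p of 0.0508 and an adjusted p of 0.368 in limma.

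Cgn encodes cingulin, a coiled-coil protein that links ZO proteins to actomyosin and holds GEF-H1, a RhoA activator, at the junction. Its probe (NM_001037711, chr3:94564031-94564090, minus strand) read -1.87 and -1.62 in Control, -2.60 and -2.24 at 24 h, and -2.31 and -2.07 at 48 h. All 4 CSF1 arrays lay below both Control arrays, as did those of 23.3% of all genes tested. At 24 h the level was 1.59-fold lower, a log2 difference of -0.67 with an SE of 0.18 and an interval of -1.13 to -0.21, and the adjusted p was 0.0702 in limma (unadjusted p = 0.0128). At 48 h the log2 difference was -0.45 (interval -0.91 to 0.02, adjusted p = 0.175, limma), and the 2 times differed by 0.23 (adjusted p = 0.633, limma).

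Cgn at 24 h was the tight junction value closest to the threshold, and the processing decided its side. With arrays centred on their medians it was -0.96 (adjusted p = 0.0416), with the filter raised to all 6 arrays above background its adjusted p was 0.0478, and with an intensity trend in limma it was 0.0471. Over all 21 alternatives the adjusted p ran from 0.0265 to 0.298 and the difference from -0.96 to -0.43. With the slide as a block, which sets the first 24H CSF1 array aside, it was -0.49 (adjusted p = 0.244).

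**Figure D3:**
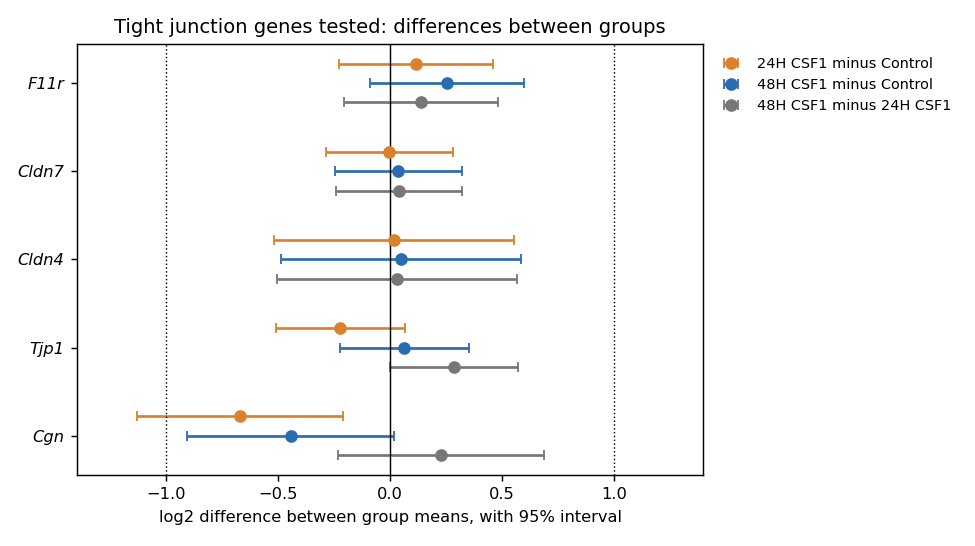
Points are log2 differences between group means for the 5 tight junction genes tested, bars are 95% intervals from limma, colours are the 3 comparisons and dotted lines mark a 2-fold change either way. Only the 24 h interval of Cgn crosses a dotted line, and only that one excludes 0.

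Each interval bounds 1 difference under the main scaling alone, and other scalings give other limits. With arrays centred on their medians, Tjp1 at 24 h was -0.51 with an SE of 0.18. The limits that follow are those of the main scaling. For F11r, Cldn7, Cldn4 and Tjp1 the intervals of both times lay between 0.699 and 1.51 times the Control level. That of Cgn at 24 h ran from 0.456 to 0.865 times Control. Between 48H CSF1 and 24H CSF1, 0 of 5 genes were called, beside 0 of all 24648 genes by adjusted p, 13.6% by unadjusted p and 2.27% by unadjusted p with a 2-fold change. The differences of the 5 genes between the times ran from 0.03 for Cldn4 to 0.29 for Tjp1, beside a median of -0.08 for all genes. The 2 times did not overlap for 1 of the 5, Tjp1, beside 47.9% of all genes.

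Centring the arrays on their medians moved the median difference of all genes at 24 h from 0.04 to -0.25. Under it F11r at 24 h went from 0.12 to -0.17, which was 0.08 above the all-gene median in both cases. Cgn was 0.71 below that median in both cases. Cldn4 turned sign at both times and Cldn7 and Tjp1 at 48 h. As this centring moves every gene alike, their distances from the all-gene median were also the same in both cases.

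The promoters of the 9 genes were searched for the E-box CACCTG and its reverse complement CAGGTG, which read the same site on either strand. Matches cannot overlap, because no ending of either motif is a beginning of either. Promoters were windows of 250 bases before and 50 bases after the start site in RefSeq tables of GRCm38.p6, where all 9 genes were found, with 12 windows. An E-box was present in a window of 6 of the 9 genes, beside 22.6% of 27025 genes. By window it was 8 of 12, beside 20.2% of 32851 windows. The windows of Marveld2 overlap and hold the same site, and those of Ocln overlap and share 1 site. The window count therefore repeats sites. Of the 5 genes with signal 3 held an E-box, F11r, Cldn4 and Cldn7, and of the 4 without, Cldn3, Ocln and Marveld2. Tjp1, Cgn and Cldn1 held neither CACCTG nor CAGGTG. Other E-box sequences were not searched for. The shares with and without signal were thus 3 of 5 and 3 of 4. The 250 bases upstream of 3 genes are shown, 2 with the motif and the gene with the lowest p without it, with the E-box in capitals.
F11r, chr1:171437311-171437560, plus strand: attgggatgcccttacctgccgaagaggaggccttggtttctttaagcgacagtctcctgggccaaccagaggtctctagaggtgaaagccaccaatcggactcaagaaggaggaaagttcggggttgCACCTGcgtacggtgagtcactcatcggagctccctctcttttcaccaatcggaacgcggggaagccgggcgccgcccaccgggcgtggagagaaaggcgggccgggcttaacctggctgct
Cldn4, chr5:134946935-134947184, minus strand: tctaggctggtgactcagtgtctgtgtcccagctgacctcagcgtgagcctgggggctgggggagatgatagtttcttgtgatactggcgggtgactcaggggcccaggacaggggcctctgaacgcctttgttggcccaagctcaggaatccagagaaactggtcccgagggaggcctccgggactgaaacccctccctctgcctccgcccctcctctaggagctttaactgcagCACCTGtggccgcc
Cgn, chr3:94786483-94786732, minus strand: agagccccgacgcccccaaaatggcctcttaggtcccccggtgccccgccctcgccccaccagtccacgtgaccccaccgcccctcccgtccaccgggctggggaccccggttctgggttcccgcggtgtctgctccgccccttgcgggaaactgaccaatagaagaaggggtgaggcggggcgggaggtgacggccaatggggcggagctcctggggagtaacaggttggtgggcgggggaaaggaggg
The E-box of F11r begins at base -122 from the start site. That of Cldn4 begins at -14, and a second lies past the start at base 11. A match is a stretch of letters, and nothing about binding was measured.

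The same pathway beyond the 9 genes was read from 4 lists: other claudins, other membrane proteins, scaffold and signalling proteins, and polarity complexes. Of 19 other claudins on the array 7 were well above background on all 6 arrays, 7 on some and 5 on none. Of 11 other membrane proteins 7 were above it on all arrays and 3 on none. Of 16 scaffold and signalling genes 15 were above it on all arrays, and of 11 polarity genes 7. In all 40 of the 57 genes could be tested.

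At 24 h 2 of the 40 genes were called higher and 6 lower, beside 8.02% and 5.99% of all genes. At 48 h 1 was called higher and 4 lower, beside 6.58% and 7.38% of all genes. Between the times 0 were called. The median difference of the 40 was 0.00 at 24 h and 0.06 at 48 h, beside 0.04 and -0.04 for all genes. By the rule of 2-fold with an unadjusted p, 2 were higher and 3 lower at 24 h, beside 5.86% and 1.83% of all genes. One of the 2 higher is Cldn10 (log2 difference 1.63, adjusted p = 0.144, limma), which entered the test only through the group where it is high, with both arrays above background at 24 h and 1 of 2 in Control and at 48 h. At 48 h 1 was higher and 1 lower, beside 4.66% and 1.83%. Called at both times were 1 higher, Jam2, and 3 lower, Amotl2, Arhgef18 and Prkci, beside 4.91% and 4.04% of all genes, and the 2 comparisons share their Control arrays.

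Among the 7 other membrane proteins tested, 1 rose at both times, beside 4.91% of all genes, and 6 were not called at either time. Jam2, a relative of F11r known from endothelial and stromal junctions, read 2.08 and 2.16 in Control, 3.03 and 2.99 at 24 h, and 3.25 and 3.38 at 48 h. It rose by a log2 difference of 0.89 (SE 0.11, adjusted p = 0.0102, limma) and 1.19 (SE 0.11, adjusted p = 0.00477, limma). Every CSF1 array was above both Control arrays, which adds little for a gene named because it was called at both times. F11r, its relative among the 9, differed by 0.12 and 0.25 and was not called, and the difference between the 2 genes' responses was not tested.

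Of the 16 scaffold and signalling genes 4 fell at 24 h and 3 fell at 48 h, beside 5.99% and 7.38% of all genes, and the others were not called. Amotl2 encodes an angiomotin, an actin-binding scaffold that also holds the transcription co-activator YAP. It read 2.13 and 2.12 in Control, 0.62 and 1.10 at 24 h, and 0.71 and 0.77 at 48 h. It fell by 1.26 on the log2 scale at 24 h (adjusted p = 0.014, limma) and by 1.38 at 48 h (adjusted p = 0.0115, limma). Arhgef18, which encodes a RhoA activator of apical junctions, read 2.38 and 2.72 in Control, 1.50 and 1.62 at 24 h, and 1.76 and 1.74 at 48 h. It fell by 0.99 (adjusted p = 0.0173, limma) and by 0.80 (adjusted p = 0.0294, limma). In both genes all CSF1 arrays were below both Control arrays, as were those of 23.3% of all genes tested, and both were named because they were called.

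Of the 9 polarity genes 1 rose and 1 fell at 24 h, beside 8.02% and 5.99% of all genes, and 1 fell at 48 h, beside 7.38%. Prkci encodes an atypical protein kinase C of the PAR complex, which is needed for junctions to mature. It read 4.63 and 4.67 in Control, 3.68 and 3.78 at 24 h, and 3.79 and 3.71 at 48 h. It fell by 0.92 (adjusted p = 0.00912, limma) and by 0.90 (adjusted p = 0.00948, limma), and the groups lay far apart against the spread within them.

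Genes called at 1 time only were named after their values were seen. At 24 h these were the claudin Cldn20, which fell by 1.06 (adjusted p = 0.0422, limma), and Cgnl1, the paralog of cingulin known as paracingulin, which fell by 1.03 (adjusted p = 0.0195, limma). Amot, another angiomotin, fell by 0.67 (adjusted p = 0.0359, limma), and the polarity gene Pard6g rose by 1.37 (adjusted p = 0.0415, limma). At 48 h the call was Tjap1, a junction-associated protein, which fell by 0.75 (adjusted p = 0.02, limma). Cgnl1 read -1.80 and -1.45 in Control, -2.56 and -2.75 at 24 h, and -1.82 and -1.99 at 48 h, so its 48H CSF1 arrays were just below both Control arrays.

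Many of these calls were lost in fits without 1 array, as were calls over all genes, which went from 3453 to between 898 and 2539 at 24 h and from 3440 to between 889 and 2116 at 48 h. In these fits without 1 array, a group left with 1 array was taken to vary like the others. The count at 24 h, 8 with all arrays, was 5 without the first Control array, 0 without the second, 2 without the first 24H CSF1 array (and with the slide as a block) and 2 without the second. The count at 48 h, 5 with all arrays, was 4 and 1 without the first and second Control array and 2 and 1 without the first and second 48H CSF1 array. Jam2 at 48 h was called in all 6 of these fits, while at 24 h its call was lost without any 1 of the 4 arrays compared (adjusted p = 0.0522 to 0.0589, limma). Amotl2 was lost at 24 h without either Control array (0.0687 and 0.0769) and at 48 h without any 1 of the 4 arrays compared (0.0583 to 0.07). Prkci was lost at 24 h without the second Control (0.0544) or the first 24H CSF1 array (0.0545), and at 48 h without the first (0.055) or second Control (0.0576) or the second 48H CSF1 array (0.0616). Arhgef18 was lost at 24 h without the second Control (0.0631), the first (0.0853) or the second 24H CSF1 array (0.0668), and at 48 h without any array but the first Control (0.0581 to 0.123). The differences themselves kept their direction in the 6 fits. At 24 h they were 0.85 to 0.93 for Jam2, -1.50 to -1.02 for Amotl2, -0.97 to -0.87 for Prkci and -1.16 to -0.81 for Arhgef18. At 48 h they were 1.13 to 1.25 for Jam2, -1.42 to -1.35 for Amotl2, -0.94 to -0.86 for Prkci and -0.97 to -0.62 for Arhgef18.

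**Figure D4:**
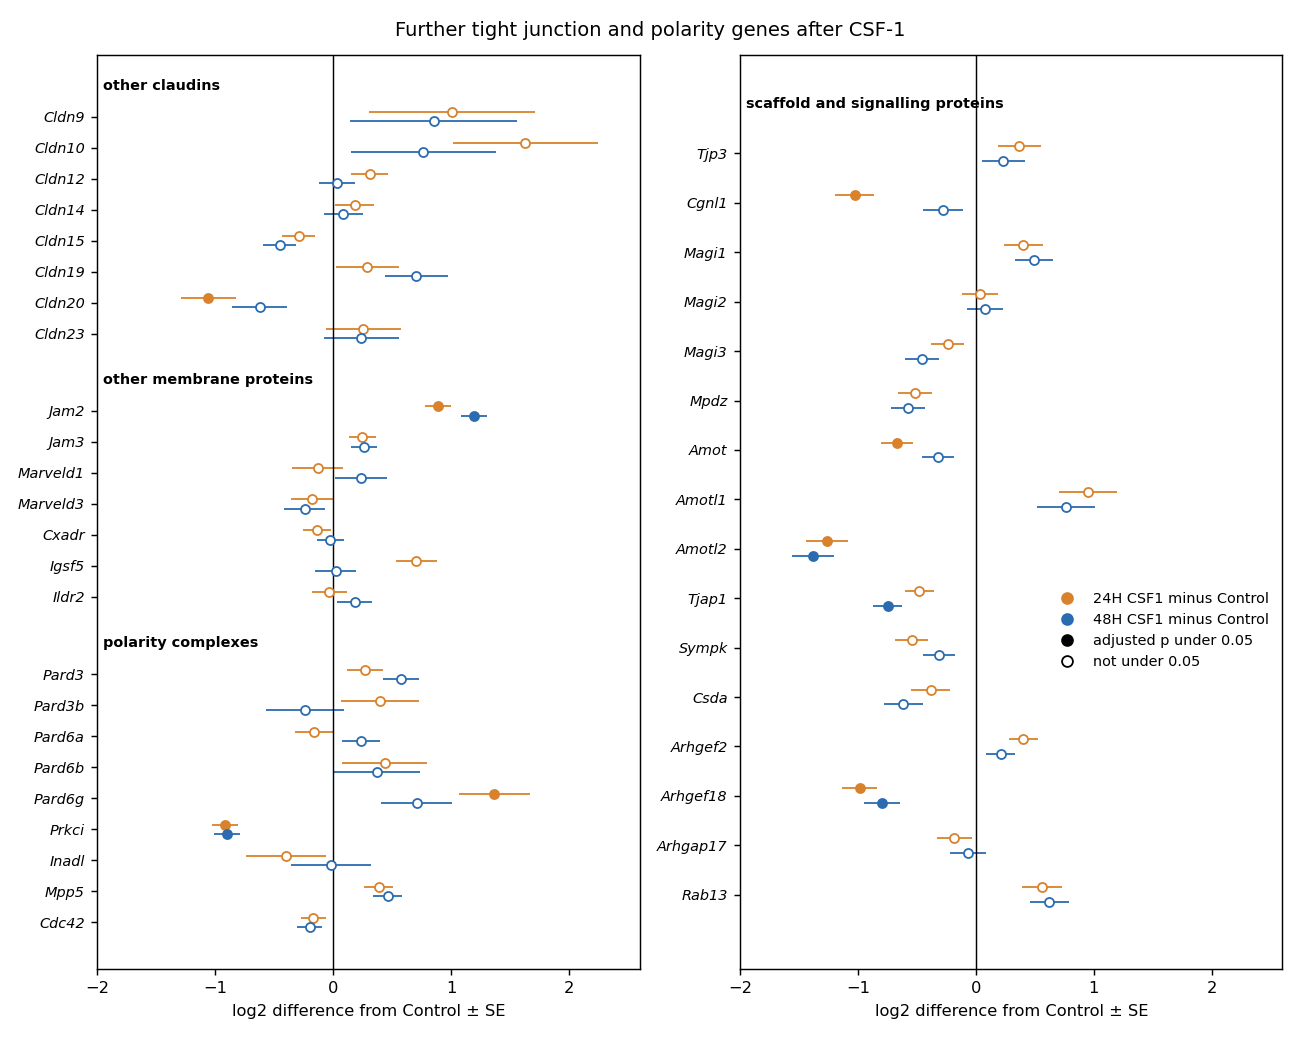
Points are log2 differences from Control at 24 h (orange) and 48 h (blue) for the 40 further tight junction and polarity genes tested, bars are standard errors from limma, and filled points have an adjusted p below 0.05. Jam2 is filled above 0 at both times, and Amotl2, Arhgef18 and Prkci are filled below 0 at both times.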

How the data were processed

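Total RNA of N18-Fms cells was labelled with Cyanine 3 and hybridised to SurePrint G3 mouse arrays, and the authors quantified the scans with Feature Extraction 11.0.1. The deposited scanner files hold intensity per spot, already background-subtracted and detrended by that software. The deposited table holds the authors' log2 values, which served as an alternative. After both were centred per probe and per array, they matched the scanner values within 0.05 in 99.8% of comparisons (44323 probes). Here log2 of the processed signal less the 75th percentile of each array over non-control spots was used, with no pseudocount. Flagged spots were dropped (303 probes left out), spots of a probe averaged, and the brightest probe taken per gene. The 24648 genes that exceeded background on the full pair of arrays in any group were fitted with limma 3.58.1 in R 4.3.3 (lmFit, eBayes, 2-sided, 1 mean per group), and the fit was tested on simulated data. The number of arrays limits the precision. Alternatives were other background corrections, normalizations, filters and probe rules, the methods' t-test, slide and replicate blocks, and leaving out arrays. The members and lists were chosen with earlier results of these data known. Genes of the further and marker lists that are not reported here were left out of the counts. Named by rule were all 9 genes and, per further list, up to 3 genes with the largest mean absolute difference among those called at both times; genes with a pattern like a called member were to be named too, and no member was called. Symbols and promoters came from RefSeq tables of GRCm38.p6; probe positions are those of the array files, in mm9.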

Additional observations from a re-analysis of the deposited data

Results flagged for a closer look

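Marveld2 on the second 24H CSF1 array was singled out because it is a signal of a gene outside the tests. At -4.04 (log2 signal less the 75th percentile) this value was well above background, while both Control arrays were not. It was the 1 such value among the 4 tight junction genes left untested. No group here holds the 4 samples needed to test for a sample far from the others.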

How the results depend on the processing

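None of the 5 tight junction genes was called at 48 h or between the times under any of 21 alternatives. At 24 h 1 was called, Cgn, with median centring, with all 6 arrays above background required, with an intensity trend and with the replicate block. The replicate numbers did not establish pairs, as deviations of same-numbered arrays correlated at 0.128 (Control and 24H CSF1), 0.0943 (Control and 48H CSF1) and 0.199 (24H CSF1 and 48H CSF1). With the replicate block the adjusted p of Cgn was 0.0265 at 24 h and 0.0526 at 48 h, and the further genes called were 8 at 24 h and 7 at 48 h, with all genes called at 3800 and 3967. Further genes called at 24 h (8) became 13 with normexp and quantile normalization, 3 with no filter on dim genes, 14 with the trend, 2 with the slide block and 0 with the methods' t-test after the adjustment added here. Those at 48 h (5) became 9 with normexp and the 75th percentile, 10 with normexp and quantile, 2 with no filter, 10 with all 6 arrays required, 11 with the trend and 0 with that t-test after adjustment. Leaving out single arrays gave 0 to 6 at 24 h and 1 to 5 at 48 h. Calls over all genes, 3453 at 24 h and 3440 at 48 h in the main fit, moved as well. At 24 h they were 3882 with normexp and quantile normalization and 1321 with no filter. At 48 h they were 4756 with normexp and the 75th percentile and 4481 with normexp and quantile. With no filter they were 869 at 48 h, and with all 6 arrays required 4132. Small differences that were not called turned sign. Median centring moves every gene alike, so sign turns under it left the distance from the all-gene median as it was. Cldn4 at 24 h was -0.21 with quantile normalization, -0.27 with median centring, -0.16 with normexp and quantile and -0.27 with the slide block. Cldn4 at 48 h was -0.028 with quantile normalization, -0.0502 with median centring, -0.0033 with normexp and the 75th percentile and -0.0409 with normexp and quantile. Cldn4 between the times was -0.0138 with normexp and the 75th percentile and -0.18 with the mean of its probes. Cldn7 at 24 h was 0.0082 with normexp and the 75th percentile, 0.0006 in the authors' values and 0.0273 with the slide block. With median centring F11r at 24 h was -0.17, and at 48 h Cldn7 was -0.0629 and Tjp1 -0.0363. Without single arrays Cldn4 ran from -0.27 to 0.30 at 24 h, from -0.0529 to 0.15 at 48 h and from -0.25 to 0.32 between the times, and Cldn7 from -0.0783 to 0.0718 at 24 h and from -0.0384 to 0.11 at 48 h. All genes called by adjusted p ran from 0 (the methods' t-test, adjusted) to 4903 at 24 h and 5477 at 48 h, and from 0 to 286 between the times. By unadjusted p and 2-fold the ranges were 841 to 3270, 885 to 2178 and 162 to 1352. The causes of these changes were not tested. Arrays that read 4 of the 9 genes below background cannot show whether those genes changed.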
